A study of Mus musculus with 40 samples.

Results

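A set of 9 genes whose products the liver releases into blood, or that act at the cell surface on metabolites, were followed: Fgf21, Gdf15, Angptl4, Angptl6, Igfbp1, Igfbp2, Vnn1, Ahsg and Rbp4. They were chosen by name, with earlier results of these data known, as the rows of the count data that carry these symbols. They make up 9 of 21448 gene symbols and 11 of 30146 probes. Fgf21 and Igfbp2 had 2 probes each and the other 7 genes had 1; the values given are those of the probe with the most reads, and the other probe served as a check. The livers came from male and female wildtype Crl:CD1(ICR) mice, an outbred stock, given GenX by oral gavage for 90 days. The doses were 5, 0.5 and 0.1 mg/kg bw/d, and controls (0 mg/kg) received deionized water. GenX is the ammonium salt of a short perfluorinated ether acid. Each of the 8 groups held 5 mice, each measured in 1 section of formalin-fixed, paraffin-embedded liver. The library of mouse 355, a female at 0.5 mg/kg, was left out for its low number of reads, so that group holds 4 mice.

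Hepatokines are proteins that liver cells secrete and that act on other organs. FGF21 and GDF15 are hormones of the fasted or stressed liver, ANGPTL4 inhibits lipoprotein lipase, IGFBP1 and IGFBP2 bind insulin-like growth factors, fetuin-A (Ahsg) and RBP4 are abundant plasma proteins, and vanin-1 (Vnn1) is an enzyme anchored at the cell surface that splits pantetheine. Fgf21, Angptl4 and Vnn1 are textbook targets of PPARα, the nuclear receptor that turns on fatty acid oxidation in the fasting liver. Of the 9, only Ahsg and Rbp4 changed at the threshold used on their most counted probe, and both fell. Fgf21 in males and Vnn1 in both sexes had higher mean levels at 5 mg/kg, from at most 50 estimated molecules in a group, and were called under some alternatives and not under others.

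Levels are given as CPM, counts scaled to library size after TMM normalization, and differences as log2 fold changes with their SE from 1 edgeR fit of the 39 libraries. Calls were made where the Benjamini-Hochberg adjusted p of edgeR's quasi-likelihood test was under 0.1, and this test is the source of each adjusted p given here. A probe captures its RNA with its own efficiency, so levels are compared between mice and not between genes. The 39 libraries held 10341341 to 15562253 reads. Low counts in each library formed a first peak at 20.8 to 44.8 reads, which was taken as an estimate of the reads from 1 captured molecule. By this estimate a library stands for 287018 to 655905 molecules. It is approximate: some values were below the peak, such as 11 reads of Fgf21 in male 203 and 18 of Vnn1 in female 252, and were rounded to 0 molecules. The male libraries at 5 mg/kg held more molecules (483549 to 655905) than those of the male controls (287018 to 369710), whereas the female libraries at 5 mg/kg held 306054 to 339376 against 333674 to 522313 in controls. All 7 hepatocyte markers had reads in each of the 8 groups, and the 4 adipocyte markers summed to at most 1.54 CPM in any mouse.

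The 9 genes are protein-coding and lie on 9 chromosomes of the mouse genome (GRCm38). Fgf21 is at chr7:45613886-45615490 on the minus strand, Gdf15 is at chr8:70629393-70632456 on the minus strand and Angptl4 is at chr17:33773750-33781830 on the minus strand. Angptl6 is at chr9:20873808-20879727 on the minus strand, Igfbp1 is at chr11:7197782-7202546 on the plus strand and Igfbp2 is at chr1:72824503-72852474 on the plus strand. Vnn1 is at chr10:23894688-23905343 on the plus strand, Ahsg is at chr16:22891277-22899449 on the plus strand and Rbp4 is at chr19:38116629-38125281 on the minus strand.

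Ahsg encodes fetuin-A, a plasma glycoprotein made by hepatocytes that keeps calcium phosphate in solution and inhibits the insulin receptor's kinase. Its level was 2371, 3234, 2805, 3149.8 and 2545 CPM in the 5 male controls. At 0.5 mg/kg, the males had 1565, 1769, 1491, 1409 and 1269 CPM, and at 5 mg/kg they had 962, 1066, 1182, 1280.1 and 1194 CPM. Each male at 0.5 and at 5 mg/kg lay below each male control. At 0.5 mg/kg Ahsg fell by 0.91 ± 0.15 (log2; adjusted p = 0.000115), a level 46.8% lower. At 5 mg/kg it fell by 1.31 ± 0.15 (adjusted p = 7.12e-09), a level 59.7% lower. CPM is a share of each library. The estimated molecules of Ahsg were 3441 at 5 mg/kg and 4507 in male controls, of 2829036 and 1646340 in all. In females they were 2397 and 5703, of 1612168 and 2090727. At 0.1 mg/kg the males had 1808 to 2831 CPM, overlapping the controls (log2 fold change -0.27 ± 0.15, adjusted p = 0.497).

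Female controls had 2327, 3200.1, 2372, 2512 and 3459.9 CPM of Ahsg, and the females at 5 mg/kg had 1279, 977, 1930.2, 1475 and 1471 CPM. The female groups did not overlap either, and Ahsg fell by 0.96 ± 0.15 (adjusted p = 1.49e-05), which is 48.6% lower. At 0.5 mg/kg the females had 3081, 2582, 1693 and 2217 CPM (log2 fold change -0.21 ± 0.16, adjusted p = 0.893). Of these, 3081 and 2582 lay within the control range, and 1693 and 2217 lay below each control. From 0.5 to 5 mg/kg, Ahsg fell in females by 0.75 ± 0.16 (adjusted p = 0.00487), although mouse 353 at the lower dose lay within the range of the higher. The same step in males was -0.40 ± 0.15 (adjusted p = 0.239). In the fit of only the 2 female groups, the adjusted p of the step was 0.116 at the same fold change.

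In the order of group means, the 5 highest groups were the male controls (2821 ± 373 CPM, SD, n = 5), the females at 0.1 mg/kg, the female controls (2774 ± 520, n = 5), the females at 0.5 mg/kg and the males at 0.1 mg/kg (2334 ± 450, n = 5), and the ranges of neighbours overlapped. The males at 0.5 mg/kg (1501 ± 186, n = 5) came next, with a range apart from that of the males at 0.1 mg/kg, followed by the females at 5 mg/kg (1426 ± 347, n = 5) and the males at 5 mg/kg (1136 ± 124, n = 5), which overlapped one with the next. Female 353 at 0.5 mg/kg (1693 CPM) lay within the ranges of the males at 0.5 mg/kg and of the females at 5 mg/kg. The difference between the sexes in the response to 0.5 mg/kg was 0.70 ± 0.22 on the log2 scale and was not called (adjusted p = 0.21).

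Rbp4 encodes the plasma carrier that takes retinol from the liver to other tissues, bound to transthyretin. Its level was 541, 679, 646, 617 and 717 CPM in male controls and 298, 277, 311, 309 and 304 CPM in males at 5 mg/kg. The treated males lay close together (SD 13.8 CPM) and below each control. Rbp4 fell by 1.09 ± 0.17 (adjusted p = 2.76e-06), which is 53.2% lower. Its estimated molecules were 904 in these males and 1020 in controls, of 2829036 and 1646340 in all, so the fall is in its share of the library. At 0.5 mg/kg the males had 585, 554, 454, 467 and 381 CPM, and 2 of them lay within the control range (log2 fold change -0.39 ± 0.16, adjusted p = 0.259), and from 0.5 to 5 mg/kg Rbp4 fell by 0.70 ± 0.16 (adjusted p = 0.00821) with no overlap. With all 40 libraries in the fit, the adjusted p of this step was 0.347.

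Rbp4 was not called in females at any dose. The controls had 312, 663, 437, 388 and 472 CPM and the mice at 5 mg/kg had 381, 282, 456, 349 and 465.8 CPM, and the groups overlapped across most of their ranges (log2 fold change -0.23 ± 0.16, adjusted p = 0.65). The response of Rbp4 at 5 mg/kg differed between the sexes by 0.86 ± 0.23 on the log2 scale (adjusted p = 0.069). This call was close to the threshold: it was lost with all 40 libraries (adjusted p = 0.387) and when any 1 of 9 mice was left out, namely males 102, 103, 105 and 402 and females 151, 153, 154, 453 and 455 (adjusted p of 0.106 to 0.153). Female controls also stood lower than male controls, 454 ± 131 against 640.0 ± 66.8 CPM (SD, n = 5 each; log2 difference -0.49 ± 0.16, adjusted p = 0.112). The lowest of the 8 groups was the males at 5 mg/kg (299.8 CPM), and its range overlapped that of the females at 5 mg/kg (387 ± 76.5).

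**Figure D1:**
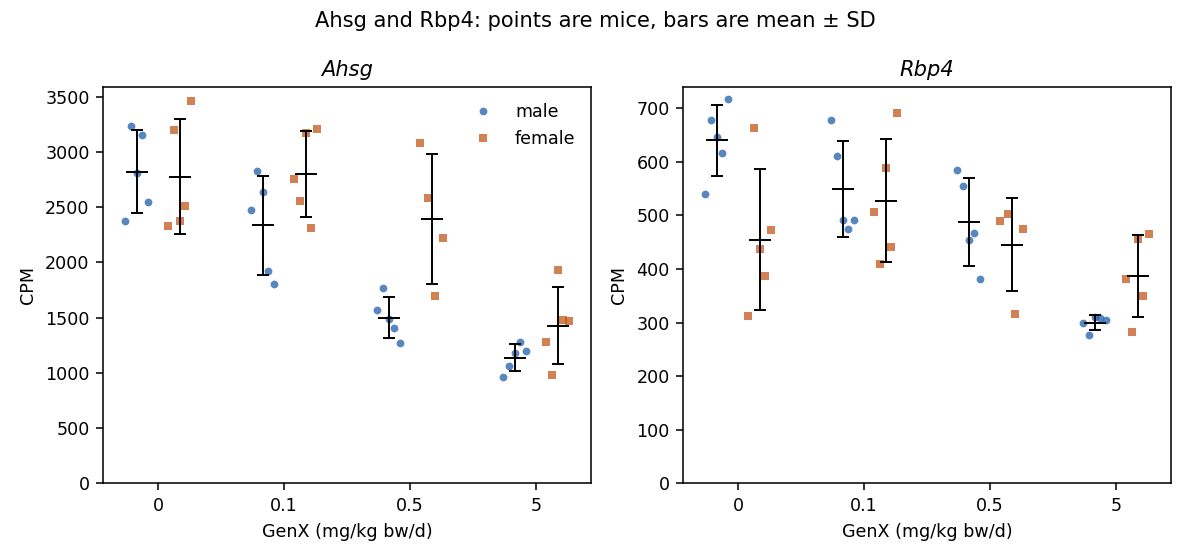
Level of Ahsg and Rbp4 in CPM (vertical axis, from 0) by GenX dose in mg/kg bw/d (horizontal axis), with 1 point per mouse (circles, males; squares, females) and bars for the mean ± SD of the group. Ahsg at 5 mg/kg lies below the controls in both sexes (1136 and 1426 against 2821 and 2774 CPM on average), while Rbp4 separates from its controls in males (299.8 against 640.0 CPM).

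Against the background of all genes, these counts read as follows. The 9 genes were chosen with earlier results of these data known, so the shares stand beside the counts as a description and not as a test. In males at 5 mg/kg, 2 of the 9 genes were called, where 9.35% of the 12412 genes tested were called and 3.75% were called lower, as both of these were. In males at 0.5 mg/kg, 1 of the 9 was called, against 2.61% of all genes, and 0.733% of all genes were called lower as Ahsg was. In females at 5 mg/kg, 1 of the 9 was called, against 4.09% of all genes and 2% called lower. Groups that did not overlap were found for 3 of the 9 genes in males at 5 mg/kg (Ahsg and Rbp4 lower, Vnn1 higher) and for 9.31% of all genes. They were found for 1 in males at 0.5 mg/kg (3.61% of all genes) and for 2 in females at 5 mg/kg, namely Ahsg and Vnn1 (3.71% of all genes).

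For the step from 0.5 to 5 mg/kg, 1 of the 9 genes was called in males (3.01% of all genes) and 1 in females (1.38%), and at 5 mg/kg the sexes differed in 1 (1.19%). In males at 0.1 mg/kg, edgeR called 0 of the 9 (0.0403% of all genes), with 0 at an unadjusted p below 0.05. In females at 0.1 mg/kg it called 0 (0% of all genes), with 1 at an unadjusted p below 0.05, and in females at 0.5 mg/kg 0 (0.201%), with 2 below 0.05. DESeq2 also called 0 in these 3 comparisons. The sexes differed in 0 of the 9 at 0.1 mg/kg (0% of all genes; 0 below an unadjusted p of 0.05 and 0 with DESeq2) and in 0 at 0.5 mg/kg (0.322%; 3 below an unadjusted p of 0.05), where DESeq2 called 1, Ahsg. Between female and male controls edgeR called 0 (3.89% of all genes; 3 below an unadjusted p of 0.05) and DESeq2 called 1, Rbp4. The shares above are those of edgeR. None was taken for DESeq2, so its counts are not read as results about the 9 genes. The median log2 fold change of the 9 genes was 0.53 in males at 5 mg/kg, beside 0.11 over all genes. In females at 5 mg/kg it was 0.07, or -0.08 over the 8 genes with reads in both groups, beside -0.01 over all genes.

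At 5 mg/kg, Ahsg in both sexes and Rbp4 in males fell where the summed hepatocyte markers were also lower at the median. Rbp4 in females was not called, although the markers were lower there too. The summed level of the 7 hepatocyte markers (Alb, Apoa1, Apob, Ttr, Cps1, Hnf4a and Tat) was 30474 to 37167 CPM in male controls and 18111 to 24824 CPM in males at 5 mg/kg. In females it was 22918 to 39426 CPM in controls and 15294 to 24583 CPM at 5 mg/kg. Of the 7, 4 were called lower in males at 5 mg/kg (Apoa1, Apob, Cps1 and Hnf4a), where 3.75% of all genes were. In females 3 were called lower, where 2% of all genes were. The study reports reduced Apoa1, which it describes as the response of rodents to PPARα activation. The sum is therefore not read as a neutral measure of hepatocyte content. The part of these markers in the fall of Ahsg and Rbp4 was not tested. The 6 markers of stellate cells and fibroblasts summed to 155 to 191 CPM in males at 5 mg/kg and 63.7 to 121 CPM in male controls, with Col1a1 and Col3a1 called higher; in females they were 80.9 to 132 and 100.5 to 132 CPM. Of the endothelial markers, 1 of 6 was called lower in males at 5 mg/kg (Clec4g) and 0 in females. None of the markers of macrophages, bile duct cells, lymphocytes or blood was called at 5 mg/kg in either sex. Of all genes, 9.35% in males and 4.09% in females were called there, so few calls in such short lists are no result about them. In whole tissue, fewer cells of a type and less RNA per cell cannot be told apart.

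The RefSeq promoter table (GRCm38.p6) held 10 starts for 7 of the 9 genes, and none for Vnn1 and Angptl4. The 250 bases before the start were searched on both strands for a direct repeat, 2 copies of AGGTCA separated by 1 base with up to 2 mismatches, which is the kind of sequence that PPARα binds together with RXR, and for TATAA. The repeat was found in 1 of the 10 windows, before 1 of the 2 starts of Gdf15, and in 3.24% of all 32851 promoters. TATAA was found in 2 of the 10, before Fgf21 and before 1 start of Rbp4, and in 22.8% of all promoters. The windows of Ahsg and of that start of Rbp4, the 2 genes that fell, of Fgf21 and of that start of Gdf15 are shown, with these matches in capitals. The windows shown for Ahsg and Rbp4 lie within the gene bounds given above, since RefSeq places these starts inside them, and the window of the other start of Rbp4, which lies outside, is not shown. A match describes letters only, and its absence says nothing of a factor.

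Ahsg, chr16:22891765-22892014, plus strand: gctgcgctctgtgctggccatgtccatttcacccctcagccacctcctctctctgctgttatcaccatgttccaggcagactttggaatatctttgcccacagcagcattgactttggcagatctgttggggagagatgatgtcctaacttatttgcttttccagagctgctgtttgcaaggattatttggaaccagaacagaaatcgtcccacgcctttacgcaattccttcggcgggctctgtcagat
Rbp4, chr19:38124812-38125061, minus strand: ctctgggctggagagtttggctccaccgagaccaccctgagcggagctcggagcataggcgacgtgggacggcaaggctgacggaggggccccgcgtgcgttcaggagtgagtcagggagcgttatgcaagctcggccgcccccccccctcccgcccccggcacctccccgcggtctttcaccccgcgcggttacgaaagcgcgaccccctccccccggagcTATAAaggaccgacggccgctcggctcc
Fgf21, chr7:45615491-45615740, minus strand: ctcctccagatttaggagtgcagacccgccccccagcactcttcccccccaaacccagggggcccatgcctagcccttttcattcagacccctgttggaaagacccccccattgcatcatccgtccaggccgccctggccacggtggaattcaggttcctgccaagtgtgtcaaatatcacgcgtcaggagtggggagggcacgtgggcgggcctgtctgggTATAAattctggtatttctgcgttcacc
Gdf15, chr8:70632457-70632706, minus strand: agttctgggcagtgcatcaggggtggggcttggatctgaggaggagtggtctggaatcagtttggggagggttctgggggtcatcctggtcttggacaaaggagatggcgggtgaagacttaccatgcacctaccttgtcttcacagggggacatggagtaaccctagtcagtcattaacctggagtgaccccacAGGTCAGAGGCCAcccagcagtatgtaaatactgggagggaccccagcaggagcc

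Fgf21 encodes a hormone that signals through FGF receptors with beta-klotho (Klb) and rises in the fasting liver. Its most counted probe gave 20.7, 19.8, 3.13, 2.20 and 33.9 CPM in males at 5 mg/kg, from 11, 13, 2, 1 and 23 molecules. The male controls had 2.89 CPM in mouse 103, from 1 molecule, and 0 in the other 4. Mice 401, 402 and 405 carried most of the 50 molecules, mouse 403 lay just above the 1 control with reads and mouse 404 below it. The ratio of molecules to controls was 29.1, with a 95% interval for counting error of 4.99 to 1172, and the log2 fold change on reads was 4.76 ± 2.23 (adjusted p = 0.201).

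The other probe of Fgf21 gave 13.8, 11.4, 9.92, 1.92 and 17.4 CPM in the same males, and 0 in all 10 controls of both sexes. Over the group it had 33 molecules, 6.40-fold more per molecule captured than controls when these are set to a floor of 3 molecules over the group. This probe was called (adjusted p = 0.0172), but with 0 reads in each control it passed the filter on low values only through treated groups, so its call is a description and no separate support. Mouse 404 was the lowest and mouse 405 the highest on both probes. Over the 39 libraries the log2 CPM of the 2 probes had a Pearson r of 0.57, as a description. Fgf21 was also called in males at 5 mg/kg with its probes summed (adjusted p = 0.0644), in the fit of only these 2 groups (0.048), in units of molecules with the probes of few molecules kept (0.00085) and without male control 103 (0.025), and over the 18 alternatives the adjusted p ranged from 0.00085 to 0.347. Mouse 103 was the only male control with reads of the most counted probe, so without it all male controls are at 0. The summed value includes the other probe, so these 2 calls give no separate support either.

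At 0.5 mg/kg, the 2 probes of Fgf21 had 6 and 5 molecules over the 5 males, from 3 and 4 mice, and neither was called (adjusted p = 0.829 and 0.13). The females given 5 mg/kg had, on the most counted probe, 0, 5.71, 2.95, 2.34 and 2.69 CPM, against 2.31 and 1.83 CPM in 2 of the controls and 0 in the other 3 (log2 fold change 1.72 ± 1.96, adjusted p = 0.995). The other probe gave 6.55, 6.28, 2.63, 3.22 and 0 CPM from 6 molecules, 2.59-fold more than controls set to the floor, and was called (adjusted p = 0.0689), again with 0 reads in each control. The difference between the sexes at 5 mg/kg was -3.05 ± 2.76 on the log2 scale on the most counted probe (adjusted p = 0.877) and was not called. Reads carry no molecular identifiers here, so the molecules are estimates. Intervals are on molecules summed over the mice of a group, so they cover counting error only and not the spread between mice. Folds at the floor take the treated count as exact and are not lower bounds.

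Gdf15, a stress-induced hormone of the TGF-β family that acts on the hindbrain through GFRAL, was at the limit of detection. It had at most 4 molecules in a mouse and at most 5 in a group, and 0 reads in the female controls, the females at 0.1 mg/kg and the males at 0.5 mg/kg. At 5 mg/kg it had 3 molecules in each sex, against 1 in male and 0 in female controls, and no direction can be read from these. The adjusted p was 0.258 or more in each comparison of treated mice with controls.

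Vnn1 encodes vanin-1, a pantetheinase that yields cysteamine and pantothenate, the precursor of coenzyme A. In males at 5 mg/kg it gave 14.6, 12.1, 15.2, 8.73 and 6.48 CPM, from 8, 8, 8, 5 and 4 molecules, and the controls had 4.01 CPM in mouse 101, from 1 molecule, and 0 in the other 4. In females at 5 mg/kg it gave 27.1, 22.04, 4.62, 14.9 and 22.6 CPM, from 9, 8, 1, 5 and 8 molecules, and the controls had 1.53 and 2.54 CPM in 2 mice, from 1 molecule each, and 0 in the other 3. In CPM, each mouse at 5 mg/kg stood above each control of its sex, and in molecules mouse 453, with 1, equalled 2 of the female controls.

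Over the groups, Vnn1 had 33 molecules at 5 mg/kg against 1 in male controls, a ratio of 19.2 (95% interval 3.21 to 781), and 31 against 2 in females, a ratio of 20.1 (5.11 to 173). On reads, the log2 fold changes were 3.81 ± 1.81 in males and 4.47 ± 1.87 in females and were not called (adjusted p = 0.207 and 0.258). In units of molecules with the probes of few molecules kept, a choice added after seeing the data, they were 3.59 and 3.91 and were called (adjusted p = 0.00217 and 0.000102), where 14.1% of 15568 probes were called in males and 5.53% in females. The female value was also called in the fit of only these 2 groups (0.0579), and the male value without control 101 (0.00936). Mouse 101 was the only male control with reads of Vnn1. Any call without it has all male controls at 0 and is no separate support. The male libraries at 5 mg/kg held more molecules than their controls and the female libraries fewer, and the ratios above are per molecule captured. At 0.5 mg/kg, 3 of 5 males and 3 of 4 females had reads of Vnn1, 2.38 to 5.57 CPM where present, and the groups overlapped the controls (adjusted p = 0.916 and 1; without male control 101 the male value was called). At 0.1 mg/kg, 1 mouse of each sex had reads.

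**Figure D2:**
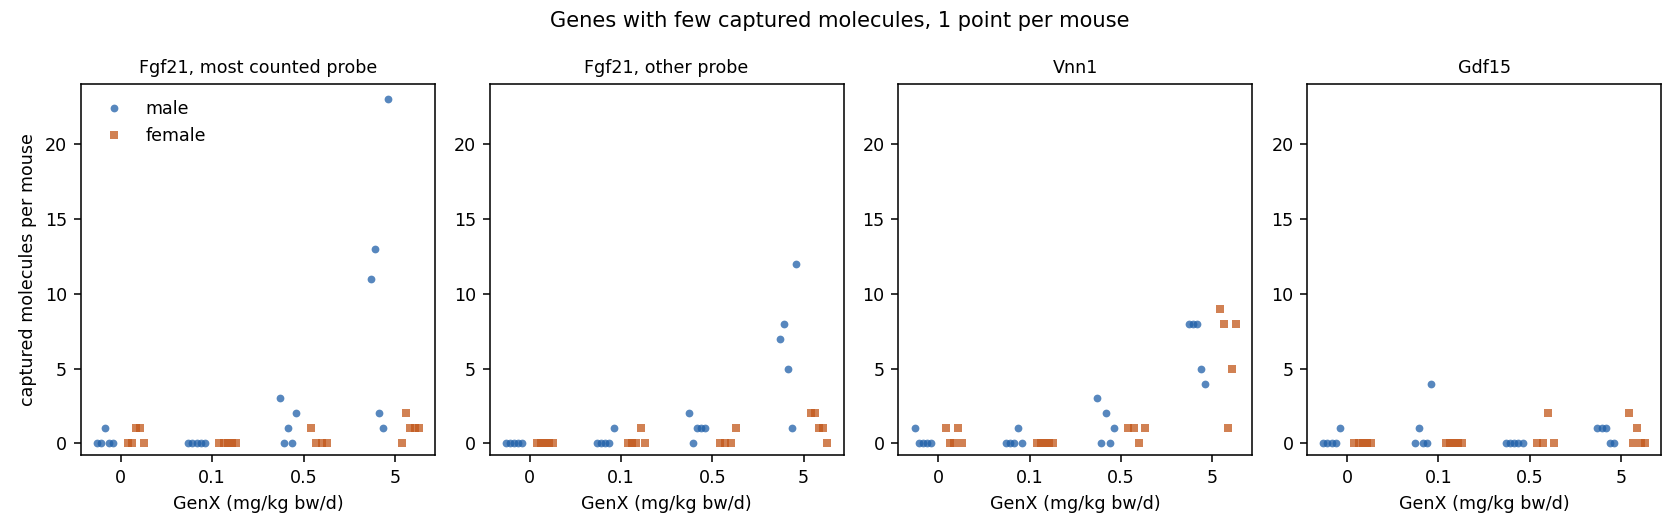
Estimated captured molecules per mouse (vertical axis, same scale in each panel) by GenX dose in mg/kg bw/d for the 2 probes of Fgf21, for Vnn1 and for Gdf15, with 1 point per mouse (circles, males; squares, females). Vnn1 reaches 4 to 8 molecules in males and 1 to 9 in females at 5 mg/kg with at most 1 in any control, Fgf21 varies from 1 to 23 among the males at 5 mg/kg, and Gdf15 stays at 4 or fewer.

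Angptl4 encodes a secreted inhibitor of lipoprotein lipase. It was well counted, with 59.1, 68.6, 116, 49.1 and 93.4 CPM in male controls and 154, 180.4, 61.7, 128 and 167 CPM in males at 5 mg/kg. In 4 of the 5 treated males it stood above each control, and mouse 403 was within the control range (log2 fold change 0.84 ± 0.36, adjusted p = 0.181). It was called in the fit of only these groups (adjusted p = 0.075), without a filter on low counts (0.0322) and in units of molecules with the probes of few molecules kept (0.0915), and the adjusted p was up to 0.335 over the 18 alternatives. Female controls had 69.0, 123, 202, 124 and 96.8 CPM, those at 0.5 mg/kg had 34.4, 76.5, 59.5 and 76.1 CPM and those at 5 mg/kg had 131, 75.2, 123, 160.3 and 155 CPM. The females at 0.5 mg/kg were the lowest of the 8 groups (61.6 ± 19.8 CPM, SD, n = 4), and the difference from controls was not called (-1.0 ± 0.39, adjusted p = 0.485) except without the filter (adjusted p = 0.0934). At 5 mg/kg the female difference was 0.07 ± 0.36 (adjusted p = 1).

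Angptl6, the angiopoietin-like protein also called angiopoietin-related growth factor, had 22.1 to 43.3 CPM in male controls and 14.1 to 28.3 CPM in males at 5 mg/kg (log2 fold change -0.21 ± 0.27, adjusted p = 0.937). Without male control 101, which had 43.3 CPM where the other 4 had 22.1 to 24.7, this difference was 0.02. Female controls had 41.5 to 52.1 CPM and stood above 4 of the 5 male controls, with a log2 difference of 0.76 ± 0.27 that was not called (adjusted p = 0.159). Each of the 6 differences from control lay between -0.33 and 0.41.

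Igfbp1, which binds insulin-like growth factors and is held down by insulin, varied widely between mice of 1 group. It was 11.9, 189.6, 38.5, 77.4 and 139 CPM in male controls and 83.2, 228, 163, 53.7 and 131 CPM in males at 5 mg/kg. In female controls it was 78.3, 51.1, 238, 186 and 473 CPM, and in females at 5 mg/kg it was 56.5, 107, 44.8, 117 and 236 CPM. The SD was 51.9% to 101.9% of the mean in the 8 groups, and each treated range overlapped its controls. The log2 fold changes at 5 mg/kg were 0.53 ± 0.59 in males and -0.87 ± 0.59 in females (adjusted p = 0.86 and 0.601), and those at 0.5 mg/kg were -1.06 ± 0.59 and -1.16 ± 0.64 (0.386 and 0.511). From 0.5 to 5 mg/kg in males the difference was 1.59 ± 0.60 (adjusted p = 0.239), and it was called without the filter, in the fit of only these groups and in both fits on molecules.

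Igfbp2, a further binding protein of insulin-like growth factors, had 10 to 21 molecules per group on its most counted probe. The males had 6.56 to 17.9 CPM in controls and 2.34 to 13.2 at 5 mg/kg, and the females 2.86 to 11.4 and 6.55 to 21.9. At 5 mg/kg the ratio of molecules to controls was 0.685 (95% interval 0.341 to 1.39) in males and 1.95 (0.943 to 4.14) in females. These intervals cover counting error only, and over mice the log2 fold changes were -0.62 ± 0.89 and 0.88 ± 0.89 (adjusted p = 0.955 and 0.944). The 2 probes of Igfbp2 had a Pearson r of 0.16 over the 39 libraries, and its other probe had 1 to 6 molecules per group.

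**Figure D3:**
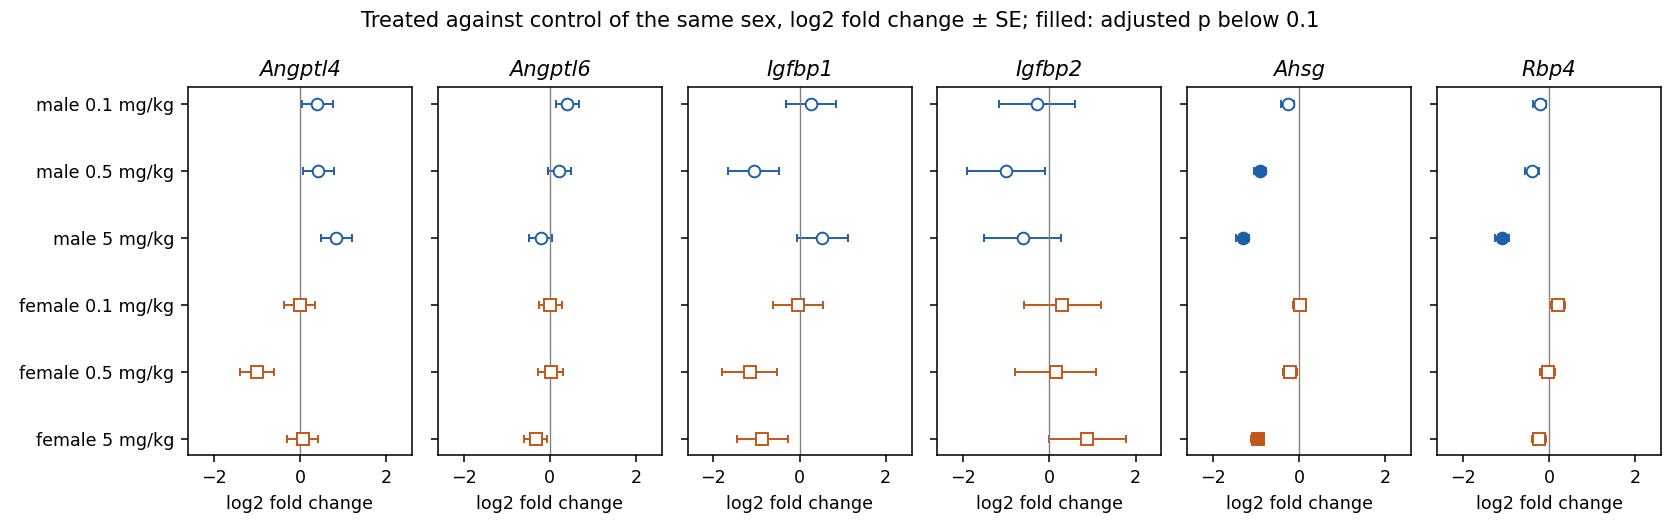
Log2 fold change (horizontal axis) of each treated group against the controls of its sex (rows) for the 6 genes with reads in nearly all mice, as the estimate ± SE from edgeR, filled where the adjusted p is below 0.1. Ahsg is filled in males at 0.5 and 5 mg/kg (-0.91 and -1.31) and for the females given 5 mg/kg (-0.96), Rbp4 in males at 5 mg/kg (-1.09), and Angptl4, Angptl6, Igfbp1 and Igfbp2 in no group.

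Genes around these 9 were taken from lists, which were also chosen with earlier results of these data known. Shares of all genes are set beside their counts as a description. Of all genes tested, 9.35% were called at 5 mg/kg in males (3.75% lower) and 4.09% in females (2% lower). At 0.5 mg/kg these shares were 2.61% and 0.201%. Counts of 1 or 2 in the short lists below are not read as results about a list. Of 17 PPARα targets, the males had 16 called higher at 5 mg/kg and 11 at 0.5 mg/kg, and the females 11 and 6. Cyp4a14, a fatty acid ω-hydroxylase, had 957 against 9.50 CPM in males (6.66 ± 0.74, adjusted p = 1.94e-09), and Acot2, a mitochondrial thioesterase, had 211 against 1.80 (6.87 ± 1.07, adjusted p = 5.39e-06). Pdk4 and Cidec were at 0 in male controls and had 40.8 and 7.08 CPM at 5 mg/kg, 24.1-fold and 4.27-fold higher with controls at the floor. Cidec had 22 molecules in these males and at most 3 in any other group. It passed the filter on low values mainly through them, so its call, counted above, is a description. Over the list, the median log2 fold change at 5 mg/kg was 4.68 (males) and 2.06 (females).

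Of 13 tested targets of the integrated stress response, a further route to Fgf21 and Gdf15, 1 was called higher in males at 5 mg/kg and 0 lower, and in females 0 were higher and 1 was lower. The 1 in males was Nupr1, at 0 in controls and 5.76 CPM at 5 mg/kg, from 17 molecules (3.30-fold with controls at the floor, adjusted p = 0.0962). With 0 reads in the male controls, its call rests on treated mice alone and is a description. The 1 in females was Atf5 (-0.73 ± 0.14, adjusted p = 0.000573). Of 16 tested receptors and proteases of these hormones, 0 were higher in either sex, and at 5 mg/kg 2 were lower (males) and 1 (females). These were hepatic lipase, Lipc, with 54.1 against 130 CPM in males (-1.27 ± 0.19, adjusted p = 2.51e-06), Fgfr3 in males (-0.80 ± 0.28, adjusted p = 0.0855) and Fgfr4, the main FGF receptor of hepatocytes, in females (-1.22 ± 0.31, adjusted p = 0.015).

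Of 14 further hepatokines tested, 1 was higher and 4 were lower among the males at 5 mg/kg (median -0.56), and 0 and 2 among the females (-0.47). In males, Hamp, which encodes the iron hormone hepcidin, fell by 1.63 ± 0.30 on the log2 scale (adjusted p = 0.000126), Igf1 by 1.34 ± 0.23 (adjusted p = 3.79e-05) and Enho, which encodes adropin, by 3.51 ± 1.06 (adjusted p = 0.0305), while Selenop, the selenium carrier, also named after its values were seen, stood 0.51 ± 0.14 higher (adjusted p = 0.0117). Fetub, which encodes fetuin-B of the same family as Ahsg, was named after its values were seen and fell in both sexes. Its log2 fold change was -1.09 ± 0.19 (males, adjusted p = 3.3e-05) and -0.67 ± 0.19 (females, adjusted p = 0.0325). Lect2, a leukocyte chemotaxin, fell by 1.26 ± 0.22 in the latter (adjusted p = 0.000105). Of 11 tested partners of IGF binding and retinol transport, 0 were higher, and 3 were lower in males and 1 in females: Igf1, which is in both lists, and Igfbp3 in males and Igfbp4 in both sexes (-0.78 ± 0.15 and -0.75 ± 0.15, adjusted p = 0.000175 and 0.000681). Of 10 tested genes of pantetheine and coenzyme A, 1 was lower in males, the peroxisomal hydrolase Nudt7 (-1.04 ± 0.28, adjusted p = 0.012), and 0 were called in females. At 0.1 mg/kg no gene of these 6 lists was called, where 0.0403% of all genes in males and 0% in females were.

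The genes most like each of the 9 across all 39 libraries were named by the Pearson r of log2 CPM, as a description that includes dose, sex and depth. Among the genes closest to Ahsg was Adk (r = 0.90), and among those closest to Rbp4 was Apoh (0.83). Vnn1 was closest to Vwa8 (0.80) and Slc16a1 (0.78), Fgf21 to Ftl1 (0.78) and Ppia (0.73) and Angptl6 to Stab2 (0.73) and Mtss1 (0.66). For Gdf15 the closest were Tmem126a and Tekt2 (0.69 each), for Igfbp2 Bbs10 and Ppp1r14a (0.67 each), for Angptl4 Tmem56 and Plau (0.62 each) and for Igfbp1 Ctsl (0.63) and Ip6k2 (0.60). These are the highest r over all tested genes outside the 9, and no background r was taken. Gdf15 and Fgf21 had 0 reads in most libraries, so their r rests largely on which libraries had any. Among the 9 themselves, Ahsg and Rbp4 had an r of 0.75, Vnn1 an r of -0.72 with Ahsg and 0.62 with Fgf21, and Igfbp1 and Angptl4 an r of 0.11.

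**Figure D4:**
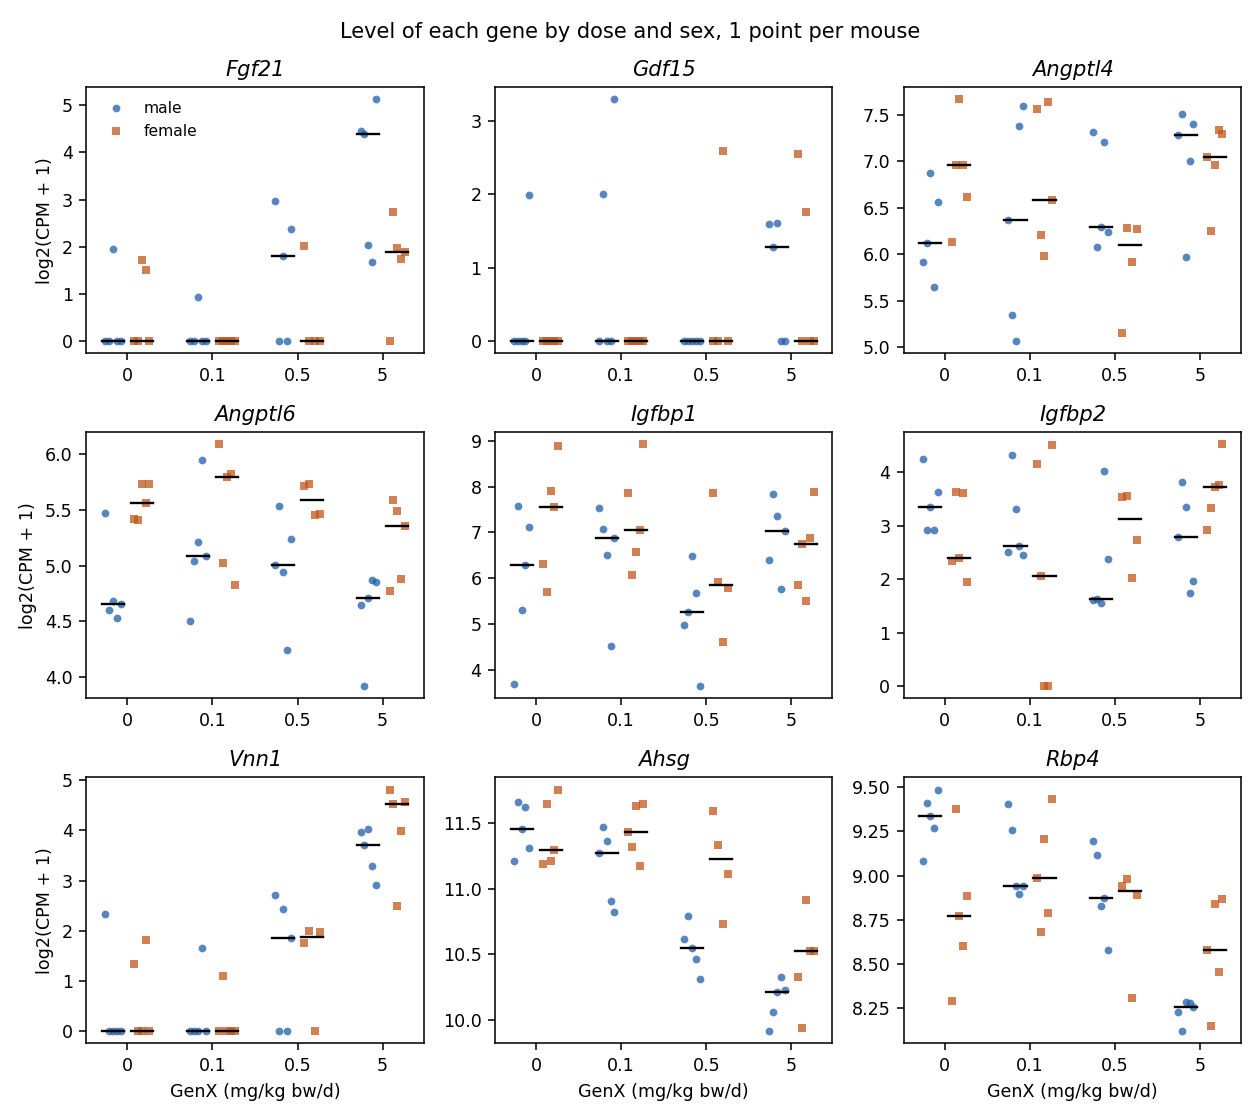
Level of each of the 9 genes as log2(CPM + 1) (vertical axis, own scale per panel, not starting at 0 for the better counted genes) by GenX dose in mg/kg bw/d, with 1 point per mouse (circles, males; squares, females) and a line at the group median. Ahsg steps down at 5 mg/kg in both sexes and at 0.5 mg/kg in males, Vnn1 stands above the controls at 5 mg/kg in both sexes, and Igfbp1 spreads from 11.6 to 483 CPM with its groups overlapping.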

How the data were processed

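Gene expression was measured by TempO-Seq, in which a pair of probes is ligated on its target RNA and sequenced, in 1 liver section of each of 40 mice. The authors deposited raw counts of reads per probe, and the submitters' processing notes name bcl2fastq 2.17.1.14, Bowtie and mm10. Mouse 355 was left out because its library, at 6711981 reads, was below the mean by over 2 SD. Probes were filtered by filterByExpr, scaled by TMM and tested in 1 quasi-likelihood fit of 8 groups over 39 libraries (edgeR 4.0.16, R 4.3.3). Benjamini-Hochberg adjustment was over the 17877 probes tested, and calls were made at an adjusted p below 0.1. Counts over all genes use the most counted probe of each of 12412 genes. DESeq2 1.42.0 was an alternative, and the fits were tested on simulated data.

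Molecules were estimated by dividing the reads of a probe by the library's first peak in the distribution of low counts. Intervals are exact at 95% for molecules summed over the mice of a group. The 9 genes were named in each comparison, from each further list up to 4 called genes with the largest change at 5 mg/kg, and for each of the 9 the 2 genes most like it, of which 1 each for Ahsg and Rbp4 is not reported here. The members and lists were chosen with earlier results of these data known. P-values rest on the spread between samples within groups, estimated over all 8 groups together and drawn toward that of other probes. Each mouse is 1 sample from 1 section, so errors of section and capture are part of that spread. The alternatives were DESeq2, its size factors, no filter on low counts, all 40 libraries, the other probe, summed probes, a fit of only the groups compared, counts in molecules, and each mouse left out. A fit in molecules that kept probes with 10 or more molecules over the 39 libraries was added after seeing the data. It replaced a fit in molecules without that filter, which estimated 1 dispersion for all probes, called Igfbp1 and was discarded.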

Additional observations from a re-analysis of the deposited data

Results flagged for a closer look

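In 68 groups of 1 gene, 13 mice lay apart from the rest of their group by Dixon's test. For 8 of the 13, 1 mouse had reads and the others 0, which the test marks by construction, so the rate of about 1 in 20 groups that chance gives for continuous values does not apply to them. Nor does it apply to female 451 (Fgf21) and female 353 (Vnn1), with 0 CPM where the others had reads. A 0 lies far from any value with reads on the log2 scale used. For Fgf21 these were male control 103 (2.89 CPM), male 203 (0.923 CPM) and female 351 (3.04 CPM), and female 451 with 0 CPM where the others had reads. For Gdf15 they were male control 105 (2.98 CPM) and female 353 (5.02 CPM). For Vnn1 they were male control 101 (4.01 CPM), male 204 (2.1695 CPM) and female 252 (1.13 CPM), and female 353 with 0 CPM. Among the better counted genes, Angptl6 was high in male control 101 (43.3 CPM) and low in male 402 (14.1 CPM), and Rbp4 was low in female 353 (316 CPM).

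The response of Rbp4 at 5 mg/kg differed between the sexes by 0.86 on the log2 scale (edgeR, adjusted p = 0.069). In the library of mouse 355, left out of each comparison, Igfbp1 was at 4108 RPM (reads relative to the library total), where the highest female control had 464.2.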

How the results depend on the processing

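No paired analysis was possible because animal numbers are not shared between groups. Ahsg in males at 0.5 and 5 mg/kg and in females at 5 mg/kg, and Rbp4 in males at 5 mg/kg, were called under each of their 18 alternatives. The numbers of the 9 genes called moved as follows, and the cause was not tested. Shares in parentheses are those of all probes tested under the same setting. Without a filter on low counts, 1 gene was called in females at 0.5 mg/kg (0.468%), 3 between 0.5 and 5 mg/kg in males (2.4%) and 2 in females (1.46%), 2 for the sex difference at 0.5 mg/kg (0.707%) and 2 between controls (2.99%). Males at 5 mg/kg then had 3 called (6.13%), with Angptl4 added, and 3 with probes summed (10.9%), with Fgf21 added. With only the groups compared, at 5 mg/kg the males had 4 called (12.5%) and the females 2 (3.84%), and 3 were called between 0.5 and 5 mg/kg in males (5.79%). In molecules, 2 were called in males at 0.5 mg/kg (13.8%), 3 between 0.5 and 5 mg/kg in males (18.7%), 1 for the sex difference at 0.5 mg/kg (2.02%) and 2 between controls (16.5%). With probes of few molecules kept, at 5 mg/kg the males had 5 called (14.1%) and the females 2 (5.53%), with 4 (6.84%) and 2 (1.82%) between 0.5 and 5 mg/kg, and 1 between controls (4.79%). With all 40 libraries, 0 were called between 0.5 and 5 mg/kg in males (0.829%) and 0 for the sex difference at 5 mg/kg (0.157%). DESeq2 called 1 for the sex difference at 0.5 mg/kg and 1 between controls, and its size factors (3.41%) or summed probes (4.31%) also gave 1 between controls. No share over all probes was taken for the DESeq2 test, so its counts are not read as results about the 9 genes.

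With 1 mouse left out, 1 to 2 genes were called in males at 0.5 mg/kg (Vnn1 also, without male control 101), 2 to 3 in males at 5 mg/kg, 0 to 1 for the sex difference at 5 mg/kg and 0 to 2 between controls (Rbp4 without 101 or 152, Angptl6 without 101). No share over all probes was taken with 1 mouse left out, so these counts are not read as results about the genes followed. Signs turned only for values that were not called. With all 40 libraries, in females at 0.5 mg/kg, Angptl6 was -0.31, Igfbp1 1.84 and Igfbp2 -0.18. Fgf21 there was 0.77 with probes summed and 6.16 on the other probe. With 1 mouse left out, values at 0.5 mg/kg in females ran from -6.46 to 0.73 for Fgf21, -0.03 to 0.07 for Angptl6, -0.07 to 0.42 for Igfbp2 and -0.14 to 0.15 for Rbp4, at 5 mg/kg in females from -0.08 to 0.32 for Angptl4, and at 5 mg/kg in males from -0.27 to 0.02 for Angptl6. In molecules with the standard filter, Fgf21, Gdf15, Vnn1 and Igfbp2 were not tested. These 4 genes had at most 50 estimated molecules in a group.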

Other observations

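In each of the 4 female groups, the mouse with the highest Igfbp1 was the one whose number ends in 55. Its level, in RPM (reads relative to the library total), was 464.2 in control 155, 469 in 255, 4108 in 355 (the library left out of the comparisons) and 241 in 455. In the male groups the highest were 102, 201, 303 and 402, none with the last number of its group. The pattern in females was seen after looking at the values and was not tested, and what the animal numbers stand for beyond the group and sex is not given in the sources used here. In the same library of mouse 355, Rbp4 had 125 and Ahsg 2280.1 RPM.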
